A study of Mus musculus with 4 samples.

Results

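Chemokines, the small secreted proteins that guide leukocytes, and their receptors were examined in cultured mouse vascular smooth muscle cells given an siRNA against the circular RNA circEsyt2. The members were the gene symbols that begin with Ccl, Cxcl, Ccr or Cxcr and a number, together with Cx3cl1, Cx3cr1, Xcl1 and Ackr1 to Ackr4. They numbered 61 of the 22488 genes listed, 39 ligands and 22 receptors. Ligands fall into CC, CXC, CX3C and XC classes by the spacing of their first cysteines and act on G protein-coupled receptors, while atypical receptors bind and remove ligands without G protein signalling. Smooth muscle cells of an inflamed artery are a known source of chemokines, whose genes are induced by NF-kB and, for some, by interferon, and the receptors are found mostly on the leukocytes that the ligands attract.

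One group received the circEsyt2 siRNA for 48 hours and the other a scramble control siRNA for the same time, with 2 libraries each. All cells were from C57BL/6 mice at passages 4 to 10. No untransfected cells were measured, so whether a gene was lowered by one siRNA or raised by the other cannot be told apart. No label says that the replicates were separate cultures, so p-values measure the spread between these libraries only, which may be technical.

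The libraries held 3765056 and 3127224 counted reads with circEsyt2 siRNA and 2516428 and 4116791 with scramble siRNA, as recovered from the digits of the deposited FPKM, a read number scaled to gene length and library size. Counting of whole genes does not separate the circle from its host gene, and the host Esyt2 had 40.6 and 48.7 FPKM with circEsyt2 siRNA, against 53.4 and 50.6 with scramble siRNA (limma adjusted p = 0.318), so the label of the knockdown could not be checked. The smooth muscle actin gene Acta2 had 883 and 829 FPKM with circEsyt2 siRNA and 1421 and 1446 with scramble siRNA. Myh11, a marker of contractile smooth muscle, had 1.15 and 2.78 FPKM with circEsyt2 siRNA, against 8.58 and 7.77 with scramble siRNA, and both it and Acta2 were called lower (limma adjusted p = 0.0228 and 0.00705). Tagln had 5.08 and 8.20 FPKM with circEsyt2 siRNA, against 8.80 and 10.4 with scramble siRNA, and did not pass the test. Hepatocyte transcripts stood out in circEsyt2 siRNA replicate 1, where the 8 markers summed to 3004 FPKM, with 92.5 in circEsyt2 siRNA replicate 2, and 12.9 and 3.77 in the scramble libraries.

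Of the 61 members, 53 were above 0 in at least 1 library and 24 in all 4. A mean of at least 1 FPKM over the 4 libraries, the condition for testing, was reached by 22 members, of which 20 were ligands and 2 receptors. With circEsyt2 siRNA 11 of these 22 were lower and 0 higher (limma, Benjamini-Hochberg adjusted p under 0.05 over 11290 genes). Of all tested genes 7.26% were called lower, 5.47% higher and 12.7% in either direction. The median log2 fold change was −0.95 over the tested members and 0.00366 over all tested genes, and −0.21 over the 53 members above 0 when no filter was set. In 17 of the 22 both circEsyt2 siRNA libraries lay below both scramble libraries, as they did in 31.1% of all tested genes, and in 1, Ccl7, they lay above, as in 29.7% of all tested genes. The filter bears on these counts, because Cx3cl1, Cxcl14 and Cxcr6 reached a mean of 1 FPKM only through the scramble libraries and Ccl6 only through the circEsyt2 siRNA libraries. Of the 18 members with a mean of at least 1 FPKM in each group, 10 were called lower, 0 higher, and 14 were lower without overlap. The shares of all genes under this stricter filter were not worked out, so these 18 have no matching background. All these counts and medians are descriptions of the members that passed. In this bulk measurement fewer cells that make a transcript and less of it per cell cannot be told apart.

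Leaving out either scramble library takes the spread from the circEsyt2 siRNA libraries alone. That pair correlated less across tested genes (Pearson r = 0.931) than the scramble pair (r = 0.972). The members' median log2 fold change was −0.72 without scramble replicate 1 and −1.07 without scramble replicate 2, but no call was kept. Without scramble replicate 1 or scramble replicate 2, limma called 0 genes, although 1959 and 2231 genes had an unadjusted p under 0.05. Shares of all tested genes by direction were not worked out at that unadjusted threshold, so members are not counted at it. Without circEsyt2 siRNA replicate 1, the library with the most hepatocyte transcripts, 13 members were lower and 0 higher, where 5.63% of all tested genes were lower. Without circEsyt2 siRNA replicate 2, 6 were lower (Cxcl5, Cxcl3, Cxcl1, Cx3cl1, Ccl2 and Ccl11) and 0 higher, where 2% of all tested genes were lower. Variance shrinkage without a trend left 7 members lower, where 3.31% of tested genes were. Testing all 20745 genes above 0 left 9 of 53 members lower and 1, Ccl3, higher, where 2.83% of genes were lower and 2.01% higher.

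**Figure D1:**
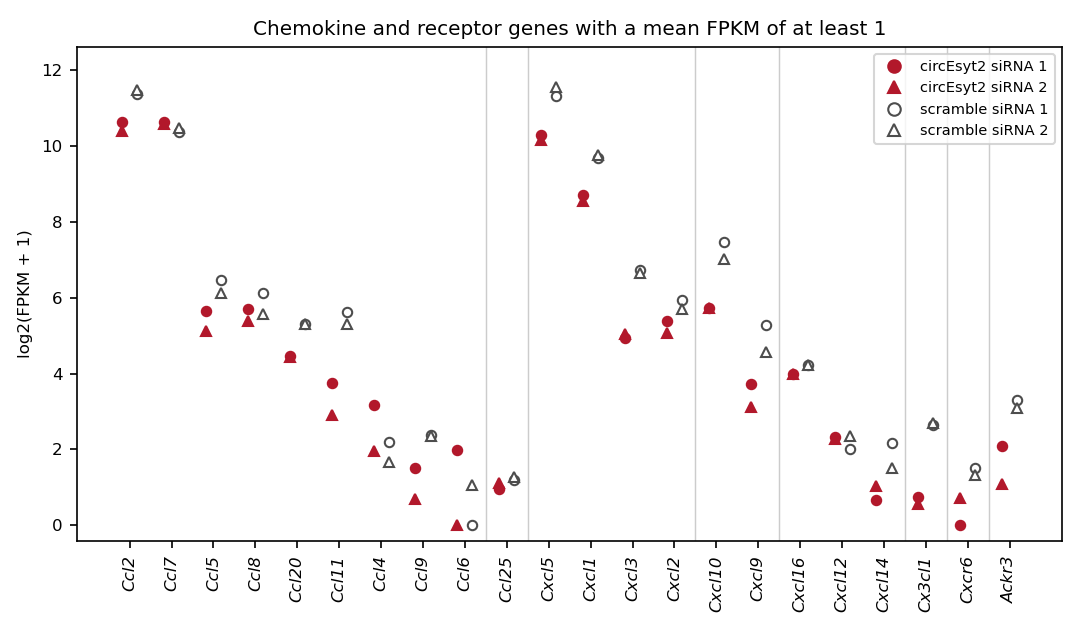
Levels of the 22 members with a mean of at least 1 FPKM, as log2(FPKM + 1), 1 symbol per library, circEsyt2 siRNA filled and scramble siRNA open. Vertical lines separate the classes (inflammatory CC ligands, other CC ligands, neutrophil-attracting CXC ligands, interferon-inducible CXC ligands, other CXC ligands, Cx3cl1, Cxcr6, Ackr3); Ccl2, Cxcl5, Ccl7 and Cxcl1 stand above the rest in all 4 libraries.

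The ligand transcripts were few in kind and high in level. Summed over all ligands the level was 5129 and 4650 FPKM with circEsyt2 siRNA, against 7949 and 8641 with scramble siRNA. That was 1.65% and 1.64% of the FPKM of the circEsyt2 siRNA libraries, against 2.82% and 2.93% of the scramble libraries. Ccl2, Cxcl5, Ccl7 and Cxcl1 made up 94.0% and 94.5% of the sum with circEsyt2 siRNA and 91.6% and 93.8% with scramble siRNA. By FPKM, Ccl2 ranked 18 and 14 among all genes in the circEsyt2 siRNA libraries and 5 and 6 in the scramble libraries. Cxcl5 ranked 22 and 19 with circEsyt2 siRNA and 6 and 5 with scramble siRNA.

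The make-up of the pool differed as well. Ccl7 supplied 30.9% and 33.0% of it with circEsyt2 siRNA, against 16.5% and 16.3% with scramble siRNA. Cxcl5 supplied 24.3% and 24.5% with circEsyt2 siRNA, against 31.8% and 34.9% with scramble siRNA. The share of Ccl2 was 30.7% and 29.0% with circEsyt2 siRNA, against 33.0% and 32.7% with scramble siRNA. The ratio of Ccl7 to Ccl2 within a library, which no scaling between libraries touches, was 1.01 and 1.13 with circEsyt2 siRNA, against 0.501 and 0.499 with scramble siRNA. The ratio of Cxcl5 to Cxcl1 was 3.02 and 3.03 with circEsyt2 siRNA and 3.06 and 3.51 with scramble siRNA. These ratios were chosen after their values were seen and carry no test.

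**Figure D2:**
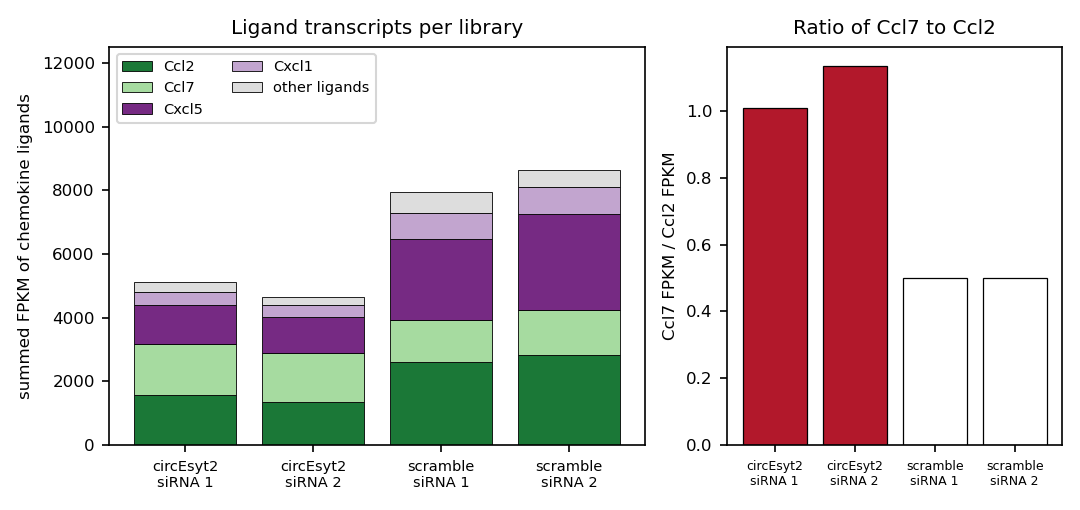
Left, FPKM summed over the 39 chemokine ligands in each library, stacked by gene; right, the ratio of Ccl7 to Ccl2 FPKM in the same libraries. The circEsyt2 siRNA bars end at 5129 and 4650 FPKM and the scramble bars at 7949 and 8641, while the Ccl7 segment is of similar height in all 4.

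Among the CC ligands, 4 of the 9 tested members of the inflammatory class were lower and 0 higher. Ccl2, the main attractant of monocytes (Entrez 20296, chromosome 11 at 82035571 to 82037453 of GRCm38, plus strand), had 1574 and 1350 FPKM with circEsyt2 siRNA, against 2621 and 2824 with scramble siRNA. The groups lay apart, and Ccl2 fell by 0.90 on the log2 scale (SE 0.11; limma adjusted p = 0.00786), 1.86-fold by mean FPKM. These values rest on 4806 to 13232 reads, but eBayes without a trend lost this call.

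Ccl7, a second monocyte attractant acting on the same receptor, CCR2, lies next to Ccl2 (Entrez 20306, chromosome 11 at 82045712 to 82047525, plus strand). It had 1587 and 1533 FPKM with circEsyt2 siRNA, against 1313 and 1410 with scramble siRNA. Both circEsyt2 siRNA values were the higher ones, yet Ccl7 did not pass the test, with a log2 fold change of 0.20 (95% interval −0.02 to 0.41; limma adjusted p = 0.194). That interval lies wholly above the one of Ccl2, −1.16 to −0.64, although the difference between the 2 genes was not tested.

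Ccl11, the eosinophil attractant eotaxin (Entrez 20292, chromosome 11 at 82057823 to 82062955, plus strand), had 12.5 and 6.502 FPKM with circEsyt2 siRNA, against 48.5 and 38.4 with scramble siRNA. It fell by 2.13 on the log2 scale (SE 0.29; limma adjusted p = 0.0111). These levels rest on 51 and 22 reads with circEsyt2 siRNA, against 132 and 171 with scramble siRNA. Ccl20, which attracts lymphocytes and dendritic cells through CCR6, had 20.9 and 20.5 FPKM with circEsyt2 siRNA, against 38.6 and 38.8 with scramble siRNA. Its replicates were close together in each group and it fell by 0.87 on the log2 scale (SE 0.12; limma adjusted p = 0.0107).

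Ccl5, a T cell and monocyte attractant also called RANTES, had 49.2 and 34.0 FPKM with circEsyt2 siRNA, against 86.9 and 68.1 with scramble siRNA. The fall of 0.89 on the log2 scale (SE 0.21; limma adjusted p = 0.0472) lay close to the threshold, and trimmed mean scaling, median ratio scaling, eBayes without a trend and testing unfiltered genes each lost it. Ccl8 had 50.9 and 40.7 FPKM with circEsyt2 siRNA, against 69.2 and 46.1 with scramble siRNA. The groups overlapped, and the log2 fold change was −0.31 (95% interval −0.85 to 0.23; limma adjusted p = 0.393).

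The other CC ligands tested were low. Ccl9, a mouse ligand of CCR1, had 1.83 and 0.630 FPKM with circEsyt2 siRNA, against 4.18 and 4.15 with scramble siRNA, and narrowly missed the threshold (log2 fold change −1.26; limma adjusted p = 0.0622). Without circEsyt2 siRNA replicate 1 and with quantile normalization Ccl9 was called lower. Ccl4, an inflammatory CC ligand, had 8.05 and 2.91 FPKM with circEsyt2 siRNA, against 3.61 and 2.21 with scramble siRNA, and Ccl6 had 2.96 and 0 with circEsyt2 siRNA, against 0 and 1.08 with scramble siRNA. In both genes the highest value was that of circEsyt2 siRNA replicate 1, from 20 reads each, and neither passed the test (limma adjusted p = 0.374 and 0.716). Ccl25 stayed between 0.928 and 1.44 FPKM in the 4 libraries (limma adjusted p = 0.707), and 204 bp of its exons overlap those of Elavl1 on the other strand.

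The neutrophil-attracting CXC ligands, which carry the glutamate-leucine-arginine motif and act on CXCR2, had 3 of their 4 tested members lower and 0 higher. Cxcl5 (Entrez 20311, chromosome 5 at 90759360 to 90761624 of GRCm38, plus strand) had 1245 and 1137 FPKM with circEsyt2 siRNA, against 2526 and 3014 with scramble siRNA. It fell by 1.21 on the log2 scale (SE 0.12; limma adjusted p = 0.00489), 2.32-fold by mean FPKM. Cxcl1 (Entrez 14825, chromosome 5 at 90891241 to 90893115, plus strand) had 413 and 376 FPKM with circEsyt2 siRNA, against 824 and 858 with scramble siRNA. It fell by 1.09 (SE 0.09; limma adjusted p = 0.00425).

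Cxcl3 (Entrez 330122, chromosome 5 at 90786103 to 90789600, plus strand) had 29.5 and 31.7 FPKM with circEsyt2 siRNA, against 104 and 99.2 with scramble siRNA. It fell by 1.70 (SE 0.11), 3.33-fold by mean FPKM, and had the smallest adjusted p of all members (limma adjusted p = 0.00256). Cxcl2 (Entrez 20310, chromosome 5 at 90903871 to 90905938, plus strand) had 40.5 and 32.6 FPKM with circEsyt2 siRNA, against 60.1 and 51.2 with scramble siRNA. The groups lay apart, but the log2 fold change of −0.60 (95% interval −0.98 to −0.22) missed the threshold (limma adjusted p = 0.0588). Cxcl2 was called lower with voom on the recovered reads, with a mean of at least 5 FPKM and without circEsyt2 siRNA replicate 1. Cxcl3 and Cxcl2 share 4.24% and 5.84% of the 50-base words of their transcripts with other genes, mostly with each other, so part of their reads may be exchanged. The ratio of Cxcl3 to Cxcl2 was 0.728 and 0.972 with circEsyt2 siRNA, against 1.73 and 1.94 with scramble siRNA.

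The promoters of Cxcl1, Cxcl2 and Cxcl3 are shown because their longest common stretch is 1 run of 11 bases, GGGAATTTCCC, while Cxcl1 and Cxcl3 were called and Cxcl2 was not. Each line gives 100 upstream bases from RefSeq (GRCm38.p6), 5′ to 3′ on the plus strand, at chr5:90891141-90891240, chr5:90903771-90903870 and chr5:90786001-90786100. Capitals mark the letters GGNNNTTCC, a loose form of the NF-kB motif, on either strand.
Cxcl1: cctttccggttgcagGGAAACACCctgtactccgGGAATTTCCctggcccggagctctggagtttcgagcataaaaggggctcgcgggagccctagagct
Cxcl2: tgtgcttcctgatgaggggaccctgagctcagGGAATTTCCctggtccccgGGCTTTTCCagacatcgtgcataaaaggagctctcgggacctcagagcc
Cxcl3: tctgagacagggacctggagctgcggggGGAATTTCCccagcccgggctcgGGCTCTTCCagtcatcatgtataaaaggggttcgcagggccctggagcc
The common run starts at position −71 of Cxcl1, −97 of Cxcl2 and −73 of Cxcl3, counted from the RefSeq start. Each line ends before the first base transcribed in RefSeq or GENCODE M21, whichever comes first. For Cxcl1 and Cxcl2 the RefSeq start lies past the end of the line, so their positions cannot be counted back from it. The larger distance of Cxcl2 thus depends on the start used. Of all 32851 promoter windows of 250 bases, 0.0426% hold this run and 15.7% hold GGNNNTTCC. The run was read from the Cxcl1, Cxcl2 and Cxcl3 promoters themselves, so its presence in them was fixed beforehand and its rarity elsewhere tests nothing. RefSeq windows were matched for 15 of the 22 tested members. The called members Ccl2, Ccl5, Ccl11 and Cxcl5 had no window, nor did Ccl4, Ccl7 and Cxcl16, which were not called. GGNNNTTCC was in 6 of the 7 windows of members called lower (Ccl20, Cx3cl1, Cxcl1, Cxcl10, Cxcl3 and Cxcl9) and in 2 of the 8 windows of members not called (Ccl9 and Cxcl2). The count depends on the letters chosen. With a further G required before the motif, a form that 4.65% of all windows hold and that was searched first, it was in 4 of the 7 windows and in 2 of the 8. A match describes letters only and is no measure of a factor's binding.

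**Figure D3:**
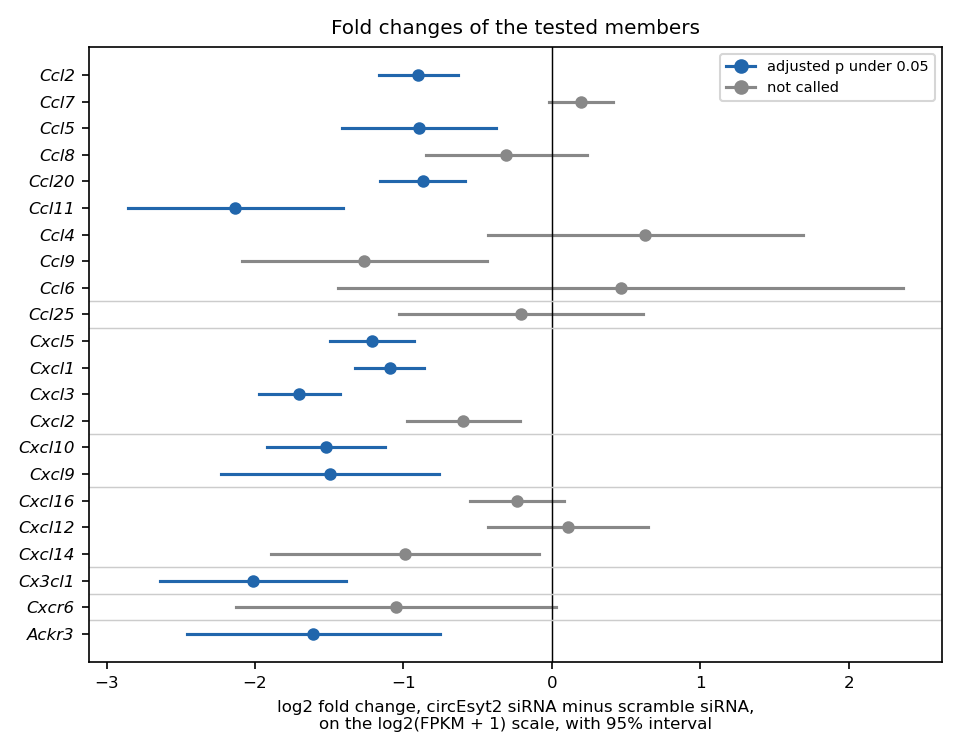
Log2 fold change of each tested member (circEsyt2 siRNA minus scramble siRNA, on the log2(FPKM + 1) scale) with its 95% interval from limma, blue where the adjusted p is under 0.05. All 11 blue points lie below 0, from −2.13 for Ccl11 to −0.87 for Ccl20, and Ccl7, Ccl4, Ccl6 and Cxcl12 lie above 0 without a call.

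Both tested interferon-inducible CXC ligands, which attract activated T cells through CXCR3, were lower. Cxcl10 (Entrez 15945, chromosome 5 at 92346638 to 92348889, minus strand) had 51.8 and 51.7 FPKM with circEsyt2 siRNA, against 175 and 129 with scramble siRNA. It fell by 1.52 on the log2 scale (SE 0.16; limma adjusted p = 0.00549). Cxcl9 (Entrez 17329, chromosome 5 at 92321347 to 92328079, minus strand) had 12.3 and 7.74 FPKM with circEsyt2 siRNA, against 37.7 and 22.9 with scramble siRNA. It fell by 1.49 (SE 0.30; limma adjusted p = 0.0305), a call lost with eBayes without a trend. The Cxcl10 exons overlap 133 bp of Art3 on the other strand, and Art3 had 3.51 and 2.44 FPKM with circEsyt2 siRNA, against 1.62 and 1.42 with scramble siRNA.

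The 250 bases before the start of Cxcl10 are shown because they hold the loose NF-kB form at 2 places together with GAAANNGAA, a loose form of the interferon-stimulated response element (RefSeq, GRCm38.p6, chr5:92348890-92349139, 5′ to 3′ on the minus strand). Capitals mark GAAAGTGAA at position −213, GGAAATTCC at −158, a match on both strands, and GGGACTTCC at −103.
Cxcl10: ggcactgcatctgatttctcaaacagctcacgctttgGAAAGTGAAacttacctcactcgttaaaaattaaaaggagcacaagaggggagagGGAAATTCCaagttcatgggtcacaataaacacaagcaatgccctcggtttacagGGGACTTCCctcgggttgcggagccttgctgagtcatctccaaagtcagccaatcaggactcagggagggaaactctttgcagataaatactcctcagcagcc
GAAANNGAA is in 7.13% of all promoter windows and, among the tested members with a window, in those of Cxcl9, Cxcl10 and Cxcl14.

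Of the remaining CXC ligands 3 were tested and 0 passed. Cxcl16, a membrane-bound ligand of CXCR6, had 14.8 and 14.8 FPKM with circEsyt2 siRNA and 17.6 and 17.6 with scramble siRNA, with a log2 fold change of −0.24 (95% interval −0.55 to 0.08; limma adjusted p = 0.272). Its exons overlap 552 bp of Zmynd15, a gene at 1.02 FPKM or less in the 4 libraries. Cxcl12, the ligand of CXCR4 and ACKR3 that most stromal cells make, had 4.06 and 3.83 FPKM with circEsyt2 siRNA and 3.06 and 4.16 with scramble siRNA (log2 fold change 0.11, 95% interval −0.43 to 0.65; limma adjusted p = 0.762). Cxcl14 had 0.582 and 1.05 FPKM with circEsyt2 siRNA, against 3.48 and 1.86 with scramble siRNA, from 16 reads or fewer per library, and did not pass (limma adjusted p = 0.135).

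Cx3cl1, the membrane-anchored ligand fractalkine (Entrez 20312, chromosome 8 at 94772009 to 94782427, plus strand), showed the largest ratio among the called members. It had 0.676 and 0.488 FPKM with circEsyt2 siRNA, against 5.26 and 5.50 with scramble siRNA. The groups were 9.24-fold apart by mean FPKM, and Cx3cl1 fell by 2.01 on the log2(FPKM + 1) scale (SE 0.26; limma adjusted p = 0.00937). The values rest on 10 and 6 reads with circEsyt2 siRNA and 52 and 89 with scramble siRNA. Cx3cl1 reached the mean of 1 FPKM needed for testing only through the scramble libraries. With no filter on low values it was called lower as well (limma adjusted p = 0.0162), while a mean of at least 5 FPKM left it untested.

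Receptor transcripts were scarce. All 22 receptors together held 133 and 56 reads with circEsyt2 siRNA, against 105 and 216 with scramble siRNA, where the ligands held 19060 to 52329. Ackr3, the atypical receptor that removes CXCL12 (Entrez 12778, chromosome 1 at 90203980 to 90216751, plus strand), held 41 and 12 of these with circEsyt2 siRNA and 75 and 104 with scramble siRNA. It had 3.25 and 1.15 FPKM with circEsyt2 siRNA, against 8.90 and 7.55 with scramble siRNA. Its log2 level fell by 1.61 (SE 0.35; limma adjusted p = 0.0376). Without a filter on low values and with eBayes without a trend this call was lost.

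Cxcr6, the receptor of CXCL16, was the other tested receptor. It was listed at 0 and at 0.662 FPKM with circEsyt2 siRNA, against 1.85 and 1.51 with scramble siRNA, from 12 reads at most, and did not pass (log2 fold change −1.05, 95% interval −2.13 to 0.02; limma adjusted p = 0.173). The receptors of the abundant ligands were at the edge of detection. Ccr2, the receptor of CCL2 and CCL7, had 0.236 and 0.615 FPKM with circEsyt2 siRNA and 0.118 and 0.395 with scramble siRNA. Cxcr2, the receptor of CXCL1 and CXCL5, had 0.349 and 0 FPKM with circEsyt2 siRNA and 0.391 and 0.319 with scramble siRNA. These are 13 reads or fewer per library for Ccr2 and 4 or fewer for Cxcr2, too few to show a difference.

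Further receptors above 0 in 3 or 4 libraries included Ccr1, Ccr3, Ccr7, Ccr9, Cxcr5 and Cx3cr1. Ccr1, a receptor of several inflammatory CC ligands, had 0.750 and 0.677 FPKM with circEsyt2 siRNA and 1.12 and 1.20 with scramble siRNA, from 6 to 14 reads. Ccr7, the lymph node homing receptor, had 1.48 and 0.323 FPKM with circEsyt2 siRNA and 0.201 and 0 with scramble siRNA. Cx3cr1, the receptor of fractalkine found on monocytes and macrophages, had 0.707 and 0.355 FPKM with circEsyt2 siRNA and 0 and 0.108 with scramble siRNA. Ccr7 and Cx3cr1 were thus highest in circEsyt2 siRNA replicate 1, from 11 and 12 reads. Ccr9 had 0.207 and 0.0623 FPKM with circEsyt2 siRNA and 0 and 0.379 with scramble siRNA. Ccr3, at 0.243 FPKM or less, and Cxcr5, at 0.319 FPKM or less, held 2 to 4 reads in each library where they were above 0.

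**Figure D4:**
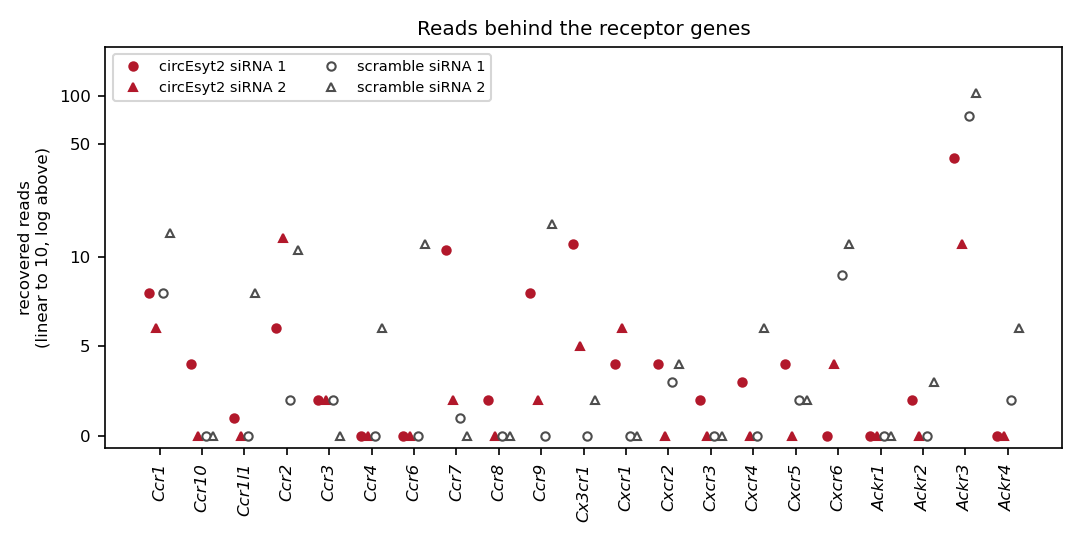
Reads behind 21 of the 22 receptor genes, 1 symbol per library, on an axis that is linear to 10 reads and logarithmic above. Ackr3 alone exceeds 20 reads, with 41 and 12 in the circEsyt2 siRNA libraries and 75 and 104 in the scramble libraries.

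Cxcr1, Cxcr3, Cxcr4, Ccr1l1, Ccr4, Ccr6, Ccr8, Ccr10, Ackr2 and Ackr4 were above 0 in 1 or 2 libraries. Among the ligands the same held for Ccl3, Ccl12, Ccl17, Ccl24, Ccl27, Cxcl17 and Xcl1. Ccl3 and Cxcr1 had 6 and 4 reads and 4 and 6 reads with circEsyt2 siRNA, against 0 and 0 with scramble siRNA for both. Ligands above 0 in 3 or 4 libraries without reaching the test were Ccl27a, Ccl22, Ccl28, Ccl1 and Cxcl15. Ccl27a had 0.670 and 0.942 FPKM with circEsyt2 siRNA and 0.334 and 1.43 with scramble siRNA, and shares 45.0% of its 50-base words with near-identical copies. Ccl22, made by dendritic cells and macrophages, had 1.37 and 0.275 FPKM with circEsyt2 siRNA and 0 and 0.313 with scramble siRNA, from 12 reads at most. Ccl28 had 0.329 and 0.264 FPKM with circEsyt2 siRNA and 0 and 0.201 with scramble siRNA. Ccl1 had 0 and 0.540 FPKM with circEsyt2 siRNA and 0.335 and 0.410 with scramble siRNA. Cxcl15, a mouse lung chemokine, had 0.749 and 0.301 FPKM with circEsyt2 siRNA and 0 and 0.343 with scramble siRNA. Thus Ccl22, Ccl28 and Cxcl15 were at 0 in scramble replicate 1 and Ccl1 in circEsyt2 siRNA replicate 1.

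Members listed at 0 in all 4 libraries were Ackr1, Ccl19, Ccl21a, Ccl21b, Ccl21c, Ccl26, Ccl27b and Cxcl13. For Ackr1, the atypical receptor of red cells and venules, 0 reads allow a level of up to 0.567 and 0.683 FPKM with circEsyt2 siRNA and 0.849 and 0.519 with scramble siRNA, taking 3 reads as the limit and counting error only. If the mates of a pair were each counted, these limits are too low. Ccl21a, Ccl21b, Ccl19 and Ccl27b share 52.0% to 100% of their 50-base words with other genes, and Ackr1 shares 20.4% with Cadm3, whose exons overlap 361 bp of it on the same strand. A 0 in these genes, and the limit given for Ackr1, may also reflect how shared reads were counted.

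Of the 31 members above 0 that were too low to test, 13 were highest in circEsyt2 siRNA replicate 1, 3 in circEsyt2 siRNA replicate 2, 5 in scramble replicate 1 and 10 in scramble replicate 2. The libraries with 13 and 10 were also the deepest, with 3765056 and 4116791 counted reads. The same split over all low genes was not counted, and the part of depth in it was not tested. Summed macrophage, neutrophil and T cell markers were highest in circEsyt2 siRNA replicate 1, although a few genes carried the sums and single markers differed. The 10 macrophage markers summed to 45.1 FPKM there and to 9.13 in circEsyt2 siRNA replicate 2, against 13.3 and 16.5 in the scramble libraries. Of these, Lyz2 had 21.4 and 0.972 FPKM with circEsyt2 siRNA, against 1.21 and 0.923 with scramble siRNA, and the defining marker Ptprc stayed at 0.653 FPKM or less. Csf1r, the receptor of a macrophage growth factor, was highest in the scramble libraries, with 1.74 and 0.262 FPKM with circEsyt2 siRNA, against 1.87 and 3.48 with scramble siRNA. The 5 neutrophil markers summed to 24.8 and 8.48 FPKM with circEsyt2 siRNA, against 3.04 and 4.23 with scramble siRNA. Most of that was S100a8, the neutrophil marker tested and called higher (limma adjusted p = 0.0420), while Ly6g was at 0 in both circEsyt2 siRNA libraries. The 7 T cell markers summed to 3.14 and 1.65 with circEsyt2 siRNA, against 1.64 and 1.98 with scramble siRNA, and Cd3d, Cd3e and Cd4 among them were highest in a scramble library. The 4 B cell markers summed to 0.966 and 2.75 with circEsyt2 siRNA, against 0.995 and 0.649 with scramble siRNA. The part of such cells in the levels of Ccl4, Ccl6, Ccr7 and Cx3cr1 was not tested.

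Of 5 tested smooth muscle markers 4 were lower and 0 higher, with sums of 916 and 868 FPKM with circEsyt2 siRNA, against 1512 and 1533 with scramble siRNA. Of 6 tested fibroblast markers 2 were lower and 0 higher, with sums of 447 and 505 FPKM with circEsyt2 siRNA, against 638 and 570 with scramble siRNA. The 7 endothelial markers summed to 9.01 and 6.80 FPKM with circEsyt2 siRNA, against 3.31 and 4.14 with scramble siRNA, and of the 2 tested Kdr was higher. Their part in the ligand falls was not tested.

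Of the 11 called members 8 lie in gene clusters on chromosomes 5 and 11. On chromosome 5, Cxcl5, Cxcl3 and Cxcl1 fell, and Ppbp, the platelet chemokine also known as Cxcl7 that lies 6893 bp downstream of Cxcl5, had 81.2 and 78.0 FPKM with circEsyt2 siRNA, against 170 and 195 with scramble siRNA. Ppbp fell by 1.18 on the log2 scale (SE 0.11; limma adjusted p = 0.00480). Its neighbour Pf4 had 0.737 and 2.22 FPKM with circEsyt2 siRNA and 0 and 1.01 with scramble siRNA, and was not tested. Cxcl9 and Cxcl10 lie further along the chromosome, 18558 bp from each other.

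On chromosome 11, neighbours differed. Ccl7 lies 8258 bp after Ccl2 and 10297 bp before Ccl11, and of these 3 genes on the same strand Ccl2 and Ccl11 fell and Ccl7 did not pass the test. The ratio of Ccl11 to Ccl7 was 0.00789 and 0.00424 with circEsyt2 siRNA, against 0.0369 and 0.0272 with scramble siRNA. In the second stretch of the chromosome, Ccl5 fell and Ccl9, Ccl6 and Ccl4 did not pass. Ccl20, Cx3cl1 and Ackr3 lie outside both clusters.

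**Figure D5:**
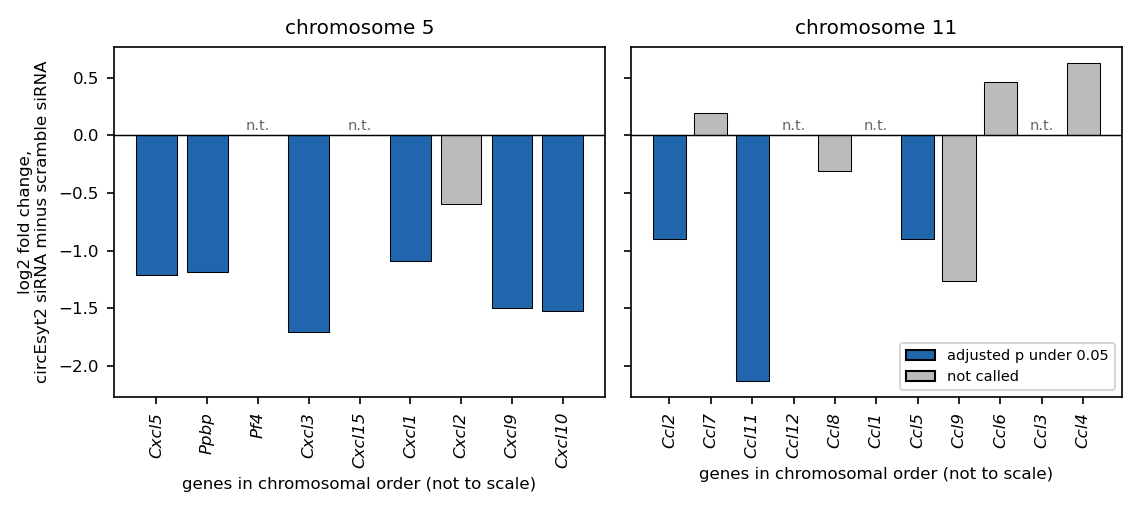
Log2 fold change (circEsyt2 siRNA minus scramble siRNA) of chemokine genes in their order on chromosomes 5 and 11, not to scale; n.t. marks genes below a mean of 1 FPKM. On chromosome 5 all 7 tested genes lie below 0, whereas on chromosome 11 Ccl7 at 0.20 stands between Ccl2 at −0.90 and Ccl11 at −2.13.

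The genes around the chemokine system were read from lists of its parts. Of all tested genes 5.47% were called higher, 7.26% lower and 12.7% in either direction. The list counts are descriptions to be read beside these shares, and no list was tested as a set. Of the receptor signalling list (G proteins, arrestins, kinases and migration regulators) 3 of 30 tested genes were higher and 0 lower, and its median log2 fold change was 0.02. Gng5, a G protein gamma subunit, had 66.6 and 65.7 FPKM with circEsyt2 siRNA, against 41.7 and 45.9 with scramble siRNA (limma adjusted p = 0.0274). The Gng5 call was lost in 6 of the 14 alternatives. Src, a tyrosine kinase gene, had 28.4 and 33.7 FPKM with circEsyt2 siRNA, against 17.5 and 20.01 with scramble siRNA (limma adjusted p = 0.0364). The Src call was lost in 4 of the 14. Pik3ca, a lipid kinase gene, rose by 0.59 on the log2 scale, and its call was lost in 7 of the 14 alternatives. Of 8 chemokine family genes outside the naming rule 4 were tested, of which 1, Ppbp, was lower and 0 were higher, and Cd74, a receptor of the cytokine MIF and part of antigen presentation, had 19.97 and 1.36 FPKM with circEsyt2 siRNA, against 0.846 and 0.172 with scramble siRNA, without passing the test (limma adjusted p = 0.184).

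Genes for the surface proteoglycans and enzymes that present or cut chemokines had 4 of 25 tested members lower and 0 higher, with a median of −0.36. Sdc4, a heparan sulfate proteoglycan gene, had 51.5 and 46.7 FPKM with circEsyt2 siRNA, against 91.1 and 95.0 with scramble siRNA (limma adjusted p = 0.00836). The glypican gene Gpc4 fell by 0.84 (log2), and Ext2 and Sulf2, which build and trim heparan sulfate, fell by 0.69 and 0.61, and the calls of Ext2 and Sulf2 were each lost in 7 of the 14 alternatives.

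Of the NF-kB and cytokine inducers 6 of 33 tested genes were lower and 2 higher, with a median of −0.18. Il1r1, the interleukin 1 receptor gene, had 9.52 and 9.05 FPKM with circEsyt2 siRNA, against 33.0 and 30.4 with scramble siRNA, and fell by 1.67 on the log2 scale (limma adjusted p = 0.00369). Map3k7, the kinase TAK1 downstream of that receptor, had 13.4 and 12.4 FPKM with circEsyt2 siRNA, against 29.4 and 30.5 with scramble siRNA (limma adjusted p = 0.00627). The toll-like receptor genes Tlr2 and Tlr3 fell by 1.55 and 1.47. The NF-kB inhibitor genes Nfkbia and Tnip1 fell by 0.75 and 0.83, and each call was lost in 5 of the 14 alternatives. The genes that rose were Nfkbib, an inhibitor of NF-kB, by 0.66, and Cebpb, a transcription factor gene, by 0.65, with calls lost in 7 and 6 of the 14 alternatives.

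Of the interferon inducers 4 of 21 tested genes were lower and 0 higher, with a median of −0.42. Irf7 had 40.1 and 41.2 FPKM with circEsyt2 siRNA, against 95.7 and 85.4 with scramble siRNA (limma adjusted p = 0.00508). Ikbke fell by 1.14, a call lost in 5 of the 13 alternatives that tested it. The receptor chain gene Ifnar2 fell by 0.59, a call lost in 8 of the 14 alternatives.

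Among genes that hold or feed recruited leukocytes, 5 of 13 tested were lower and 0 higher, with a median of −0.48. Icam1, a leukocyte adhesion molecule gene, had 2.80 and 2.79 FPKM with circEsyt2 siRNA, against 12.2 and 10.6 with scramble siRNA (limma adjusted p = 0.00508). Csf3, the granulocyte colony-stimulating factor gene, had 3.76 and 6.34 FPKM with circEsyt2 siRNA, against 20.2 and 17.4 with scramble siRNA (limma adjusted p = 0.0111). Vcam1, Saa3 and Csf1 fell by 0.92, 0.77 and 0.48 on the log2 scale, the call of Csf1 being lost in 7 of the 14 alternatives. Each of these list genes, like the members, lost its call without either scramble library.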

How the data were processed

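RNA sequencing was deposited as 1 table per library with FPKM values by gene symbol. Per the submitters' processing notes, the authors made these FPKM values with Trimmomatic, HISAT2 and featureCounts on GRCm38 (mm10); the sources used here give no version, strand setting or annotation. Read numbers were recovered from the steps of the FPKM values with GENCODE M21 exon lengths (96.6% of the 20745 genes above 0, tolerance 0.0001; a solved length for the rest). Recovered numbers of 10 or fewer were even in 64.0% to 76.9% of genes, against 49.8% to 52.9% of numbers over 50. They are therefore called reads, and the mates of a pair may each be counted. Limits set from 3 reads cover counting error only, and are too low if mates were each counted. The 95% intervals are limma's and rest on the spread between libraries. An FPKM of 1 read per kilobase was 0.243 to 0.397. Differences were tested with limma 3.58.1 in R 4.3.3 with a trended eBayes step, two-sided, on log2(FPKM + 1). The 11290 genes whose FPKM averaged 1 or more over the 4 libraries entered, with Benjamini-Hochberg adjustment over all of them and a threshold of 0.05. This scale understates changes of low genes. The steps were tested on simulated reads, and 14 alternative settings were run. Named were all members with a mean of at least 1 FPKM, all other members above 0, Esyt2, and from each pathway list the 2 genes with the smallest p and every called gene. The members, lists and motifs were chosen with earlier results of these data known. Coordinates are 1-based on GRCm38 from M21. A few genes that this rule would name are not reported here, though the counts include them.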

Additional observations from a re-analysis of the deposited data

How the results depend on the processing

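All 11 called members had a negative log2 fold change under each of the 14 alternatives that tested them. Variance shrinkage without a trend called 203 genes higher and 374 lower, and 7 members lower. With unfiltered genes 1 member was called higher and the members' median log2 fold change was −0.21, over 53 members in place of 22. Leaving out each library in turn gave 0 to 405 genes higher, 0 to 622 lower, 0 to 13 members lower and a members' median of −1.07 to −0.72, the 0 coming without either scramble library. A lone library was then assumed to vary like the other group. The causes were not tested. Same-numbered libraries did not deviate together (r = −0.0507 across genes), but a single correlation cannot exclude that the numbers mark pairs. A fit with the replicate block called 404 genes higher and 604 lower, and the same 11 members lower, but lost Gng5, Pik3ca, Ext2, Sulf2, Nfkbib, Ifnar2 and Csf1. No other setting moved a count of calls by more than 1.5 times. Depth limits what can be said of receptors and ligands with few reads.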
